A study of Mus musculus with 6 samples.

Results

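Semaphorins, plexins, ephrins and Eph receptors, together with the co-receptor Nrp1, were described in the olfactory epithelium of mouse embryos at ED18.5, with wildtype set against the arrays labelled Emx2 knockout. Membership follows a rule on gene names, and the families were picked with earlier results of these data known. Members are the transcript clusters (probe sets that give 1 value for the exons of a gene) annotated to a single gene that is Nrp1 or belongs to one of the 4 families, and there were 47 clusters for 46 genes among 14945 single-gene clusters and 16661 clusters tested. They comprised 6 class 3 semaphorins, 12 other semaphorins, 9 clusters of Nrp1 and plexins, 13 clusters of Eph receptors and 7 ephrins. Epha2 was represented by 2 clusters. Nrp2 and Ephb6 shared a cluster with another gene and were not members, and Efna3 was not analysed here.

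The wildtype embryos were homozygous for the wildtype Emx2 gene, and the others were labelled Emx2 knockout. Emx2 encodes a homeodomain transcription factor. The sources used here do not give the knockout allele, the strain or the sex of the embryos. Each array was hybridised with RNA pooled in equal amounts from 3 embryos, with 3 arrays and 9 animals per genotype. The comparison asks which transcripts of the tissue differ between the genotypes.

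Values are log2 RMA signals, 1 per cluster and array. Array medians lay between 7.64 and 7.73, and the small number of arrays limits the precision. Emx2 itself had a log2 difference of -0.07 between means of 8.44 ± 0.13 (SD, n = 3) for wildtype and 8.37 ± 0.03 (SD, n = 3) for the labelled knockout (limma adjusted p = 0.894). The position of its probes relative to the deleted part is unknown here, so this value does not check the labels, on which every direction rests. Markers of mature olfactory neurons were present in every array (Omp between 11.22 and 12.51). Eif2s3y and Kdm5d, which are Y-linked, were high in wildtype replicate 2 and in the arrays labelled knockout replicates 2 and 3 (mean of both genes 6.96 to 8.08) and low in the other 3 arrays (3.62 to 3.83).

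Semaphorins are secreted or membrane-bound guidance cues, and plexins are their receptors. Class 3 semaphorins, which are secreted, bind neuropilins such as Nrp1, and an A-type plexin in the complex carries the signal into the axon. Eph receptors are tyrosine kinases that bind ephrins on neighbouring cells. Ephrin-A proteins are held in the membrane by a lipid anchor and ephrin-B proteins by a transmembrane segment, and both partners can signal. In the mouse olfactory system, Sema3a with Nrp1 and Sema3f with Nrp2 take part in sorting the axons of sensory neurons on their way to the olfactory bulb, and ephrin-A proteins and EphA receptors take part in placing their glomeruli.

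The upstream sequences of both members with the smallest p in the comparison, Plxna3 and Sema6c, are shown first, with that of Epha5 as an upstream sequence that does hold the searched motif. The sequences are the 250 bases before an annotated transcription start, from RefSeq on GRCm38.p6, written 5′ to 3′ on the gene's strand. Plxna3 is read from chrX:74328816-74329065 on the plus strand, Sema6c, from the upstream one of its 2 starts, from chr3:95160170-95160419 on the plus strand, and Epha5 from chr5:84417383-84417632 on the minus strand. Capitals mark TAATTA, a core bound by many homeodomain proteins, which reads the same on both strands.
Plxna3: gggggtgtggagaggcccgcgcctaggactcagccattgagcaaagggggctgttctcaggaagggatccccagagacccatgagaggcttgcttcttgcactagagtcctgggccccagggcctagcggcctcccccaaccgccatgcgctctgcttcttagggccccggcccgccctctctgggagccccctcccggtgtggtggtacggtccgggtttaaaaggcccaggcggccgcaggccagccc
Sema6c: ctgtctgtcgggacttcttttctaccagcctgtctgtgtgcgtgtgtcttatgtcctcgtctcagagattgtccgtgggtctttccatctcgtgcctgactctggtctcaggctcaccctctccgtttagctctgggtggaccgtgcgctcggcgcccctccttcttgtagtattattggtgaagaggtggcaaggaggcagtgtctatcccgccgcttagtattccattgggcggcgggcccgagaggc
Epha5: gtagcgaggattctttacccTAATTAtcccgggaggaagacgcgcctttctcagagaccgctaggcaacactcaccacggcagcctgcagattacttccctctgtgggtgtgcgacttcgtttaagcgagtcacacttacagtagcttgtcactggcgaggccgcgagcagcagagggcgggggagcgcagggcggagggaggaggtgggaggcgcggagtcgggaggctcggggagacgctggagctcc

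Such sequences were at hand for 52 starts of 40 member genes. TAATTA was found in 2 of these 52 (3.85%), those of Efna1 and Epha5, against 4.84% of all 32851 windows of the same length. No TAATTA was in the windows of Plxna3 or Sema6c, which says only that these letters are not in them.

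No member passed the test. Of the 47 clusters, 0 were called lower and 0 higher (limma, adjusted p at or under 0.05), where 2.04% of all clusters were called, 1.90% lower and 0.144% higher. With 47 members the background share is about that of a single cluster, so the count of 0 does not set the families apart. At an unadjusted p under 0.05, Plxna3 and Sema6c were lower and 0 members were higher, 2 of 47 in all, against 10.1% of all clusters (8.33% lower and 1.81% higher). The count of called members was also 0 under each of the 14 alternative settings and left-out arrays.

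The differences were small throughout, as they were for most of all clusters. The median log2 difference was 0.02 over the 47 clusters and -0.04 over all clusters. Of the members 29 were positive and 18 negative (38.3% negative, against 61.6% of all clusters). The absolute difference was under 0.3 for 45 of the 47, all but Plxna3 and Sema6c, and for 14739 of all 16661 clusters. Its median was 0.08 over the members and 0.10 over all clusters. For 44 members (93.6%, against 79.4% of all clusters) the 95% interval from limma excluded a change of 1.5-fold in either direction. The intervals that reached beyond it were those of Plxna3, of Sema3e and of an Epha2 cluster. A 2-fold change lay outside the interval of all 47 members, and of 93.6% of all clusters.

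**Figure D1:**
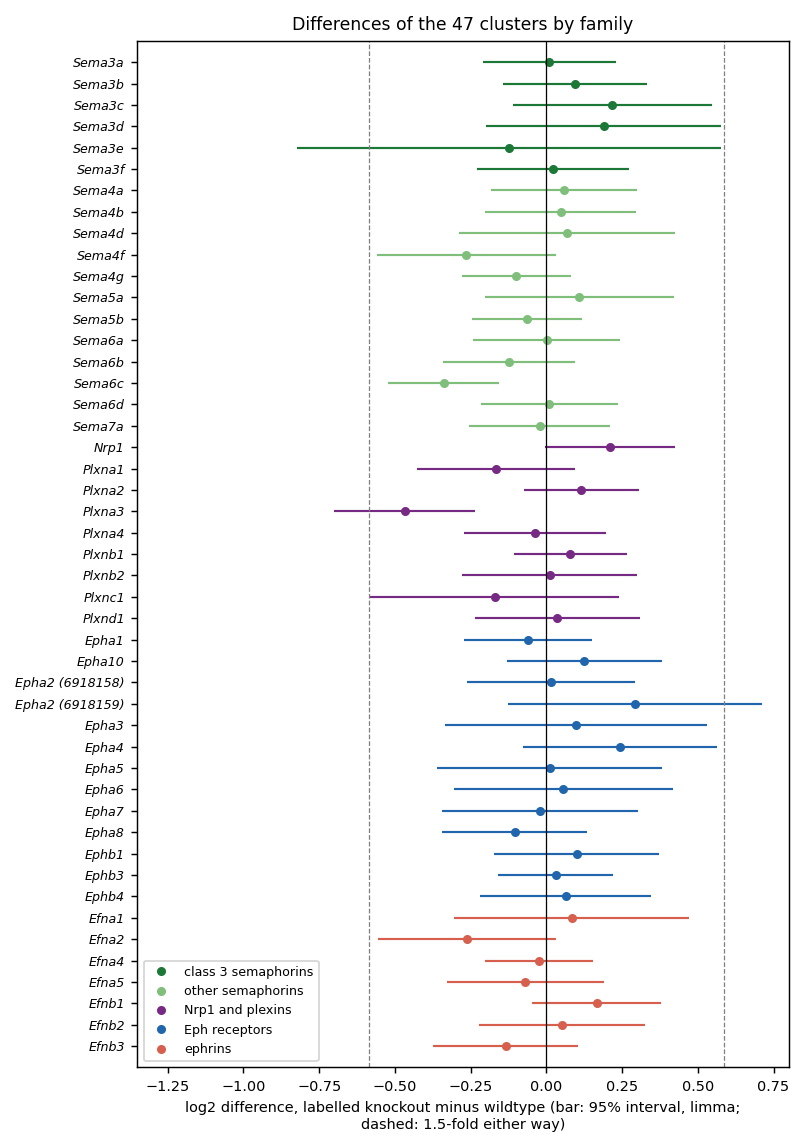
Log2 difference (arrays labelled knockout minus wildtype) of each of the 47 clusters on the x axis, with the 95% interval from limma as a bar, coloured by family; dashed lines mark a 1.5-fold difference either way. Plxna3 at -0.47 and Sema6c at -0.34 are the clusters farthest below 0 and their intervals do not include 0.

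Among the receptors of semaphorins, Plxna3 had the largest difference. Plexin-A3, encoded on the X chromosome, is a signalling receptor for class 3 semaphorins. The 3 wildtype arrays gave 8.29, 8.20 and 8.37, and the 3 arrays labelled knockout gave 7.92, 7.85 and 7.68. All 3 arrays labelled knockout lay below all wildtype arrays. The log2 difference was -0.47 (SE 0.10, 95% interval -0.70 to -0.24), a wildtype level 1.38-fold higher, and did not pass the threshold (limma adjusted p = 0.0797).

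Plxna3 remained short of the threshold in each alternative, with adjusted p from 0.0604 with an intensity trend to 0.255 with the replicate number as a block. Within arrays of like Y-linked signal the difference was -0.40 in the low arrays (1 labelled knockout, 2 wildtype) and -0.44 in the high arrays (2 labelled knockout, 1 wildtype). For the markers of mature olfactory neurons, 8 of 8 genes were negative with a median of -0.71, and 1 was called lower. Their mean was 9.81 to 10.27 in wildtype arrays and 9.23 to 9.60 in the arrays labelled knockout. Markers of immature neurons were negative in 6 of 6 genes with a median of -0.37 (mean 10.47 to 10.66 against 10.13 to 10.25), and 1 was called lower. Progenitor markers were negative in 3 of 4 genes with a median of -0.28, and 1 was called lower. The part of these markers in the Plxna3 value was not tested. Fewer cells of a type and less RNA per cell cannot be told apart in tissue RNA.

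Plxna3 was also set against the other A-type plexins, array by array, a description chosen after its values were seen. Its signal minus the mean of Plxna1, Plxna2 and Plxna4 averaged -0.28 ± 0.06 (SD, n = 3) for wildtype and -0.72 ± 0.09 (SD, n = 3) for the labelled knockout, which differ by -0.44. Plxna1, which can pair with Nrp1, was at 9.36, 9.32 and 9.64 in wildtype arrays and at 9.34, 9.28 and 9.20 in the arrays labelled knockout. Its groups overlapped, and the log2 difference of -0.17 (95% interval -0.43 to 0.09; limma adjusted p = 0.740) was of the size of the wildtype SD of 0.17 and moved to -0.07 without wildtype replicate 3. Plxna4, a receptor for class 3 and class 6 semaphorins, was at -0.04 (95% interval -0.27 to 0.20), and its groups overlapped too.

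Nrp1 lay on the other side. It was at 9.80, 9.67 and 9.70 in the wildtype arrays and at 10.05, 9.88 and 9.87 in the arrays labelled knockout. The groups did not overlap, with the lowest array labelled knockout just above the highest wildtype array. Its log2 difference was 0.21 (SE 0.09, 95% interval -0.004 to 0.42) and did not pass (limma adjusted p = 0.505), and it was 0.30 in the arrays of low and 0.21 in those of high Y-linked signal. Plxna2 was at 7.87, 7.97 and 7.92 against 8.10, 7.97 and 8.03, so that its groups were apart by less than 0.01 (log2 difference 0.12; limma adjusted p = 0.757).

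The remaining plexins did not pass either. Plxnb1 at 0.08 and Plxnb2 at 0.01 are receptors of class 4 semaphorins. Plxnd1, the receptor of endothelial cells that binds Sema3e, was at 0.04 (95% interval -0.24 to 0.31), and the 8 markers of endothelium in the same arrays had a median of -0.04. Plxnc1, the receptor of Sema7a, was at -0.17 (95% interval -0.58 to 0.24), with wildtype arrays from 6.84 to 7.42 and arrays labelled knockout from 6.72 to 7.09. It was at 0.10 in the arrays of low and at -0.52 in those of high Y-linked signal. Over Nrp1 and the plexins the median was 0.01, with 4 negative and 5 positive clusters.

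**Figure D2:**
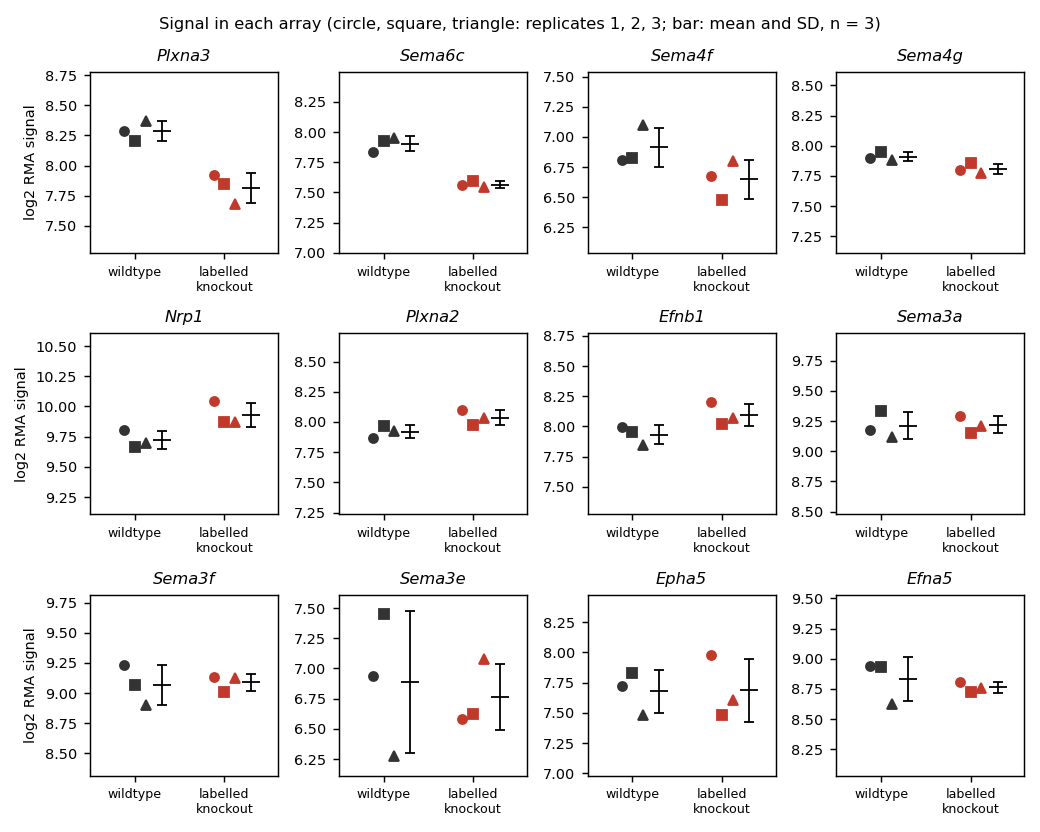
Log2 RMA signal (y axis) of 12 members in each array, with wildtype in black and the arrays labelled knockout in red; circle, square and triangle are replicates 1, 2 and 3, the bar gives mean and SD (n = 3), and each panel spans the same height of 1.5. The 3 arrays labelled knockout lie below the wildtype arrays for Plxna3, Sema6c, Sema4f and Sema4g, above them for Nrp1, Plxna2 and Efnb1, and among them for the other 5 members.

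The secreted class 3 semaphorins gave no call, and their median log2 difference was 0.06, with 5 of 6 positive. Sema3a, the repellent cue that acts through Nrp1, was at 9.18, 9.33 and 9.12 in wildtype arrays and at 9.29, 9.15 and 9.21 in the arrays labelled knockout. These arrays were mixed in order, and the log2 difference was 0.01 (95% interval -0.21 to 0.23; limma adjusted p = 0.991). Sema3f, the ligand of Nrp2, was at 9.23, 9.07 and 8.90 against 9.13, 9.01 and 9.13. Its arrays overlapped in the same way, and the log2 difference was 0.02 (95% interval -0.23 to 0.27; limma adjusted p = 0.981).

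Sema3e stood out for its spread between pools. The gene, whose product is the ligand of plexin-D1, ran from 6.28 to 7.45 within the wildtype arrays (SD 0.59), which is several times its log2 difference of -0.12, and its interval from -0.82 to 0.57 was among the widest of the members. Sema3d (0.19, adjusted p = 0.811), Sema3c (0.22, adjusted p = 0.728) and Sema3b (0.09, adjusted p = 0.865) did not pass limma's test. In wildtype replicate 3 all 6 class 3 semaphorins had their lowest value of the 6 arrays. Without that array the median of the class was -0.02. Sema3e was then at -0.43, Sema3a at -0.04 and Sema3f at -0.06, while Sema3b at 0.06, Sema3c at 0.08 and Sema3d at 0.0046 were still positive.

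Sema6c led the membrane-bound semaphorins. It belongs to class 6, transmembrane semaphorins that bind A-type plexins. Its values were 7.84, 7.93 and 7.95 in wildtype arrays and 7.56, 7.59 and 7.54 in the arrays labelled knockout. The arrays labelled knockout all lay below the wildtype arrays and spread little among themselves (SD 0.03). The log2 difference of -0.34 (SE 0.08, 95% interval -0.52 to -0.16), a wildtype level 1.27-fold higher, did not pass (limma adjusted p = 0.109).

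Sema6c had adjusted p from 0.0771 with array weights to 0.339 without knockout replicate 1. It was at -0.33 in the arrays of low and at -0.36 in those of high Y-linked signal. Its signal minus the mean of Sema6a, Sema6b and Sema6d, chosen after its values were seen, averaged 0.03 ± 0.05 (SD, n = 3) for wildtype and -0.27 ± 0.09 (SD, n = 3) for the labelled knockout. Sema6a (0.00, 95% interval -0.24 to 0.24) and Sema6d (0.01, 95% interval -0.22 to 0.24), ligands of A-type plexins, did not separate the genotypes. Sema6b was at -0.12 (limma adjusted p = 0.777). The marker values given beside Plxna3 stand beside Sema6c too, and their part in it was not tested.

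Class 4 semaphorins are transmembrane proteins. Sema4f was at 6.81, 6.83 and 7.10 in wildtype arrays and at 6.67, 6.47 and 6.80 in the arrays labelled knockout. Its groups were apart by only 0.01, and its log2 difference of -0.26 (SE 0.12; limma adjusted p = 0.575) moved to -0.17 without wildtype replicate 3. Sema4g was at 7.89, 7.95 and 7.88 against 7.80, 7.85 and 7.77, also without overlap, with a log2 difference of -0.10 (SE 0.08; limma adjusted p = 0.782). Sema4a, Sema4b and Sema4d, a ligand of plexin-B1, lay between 0.05 and 0.07. Sema7a, a lipid-anchored semaphorin and the ligand of plexin-C1, was at -0.02 (95% interval -0.25 to 0.21). The 12 semaphorins outside class 3 had a median of -0.01, with 6 negative and 6 positive, and the median was 0.02 with arrays centred on their medians.

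In 7 of the 47 members the groups did not overlap, in 4 lower (Plxna3, Sema6c, Sema4f and Sema4g) and in 3 higher (Nrp1, Plxna2 and Efnb1). Of all clusters 15.5% had groups that did not overlap, 12.0% lower and 3.51% higher. A share of 7 in 47 is near that background and is not a result about the families.

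**Figure D3:**
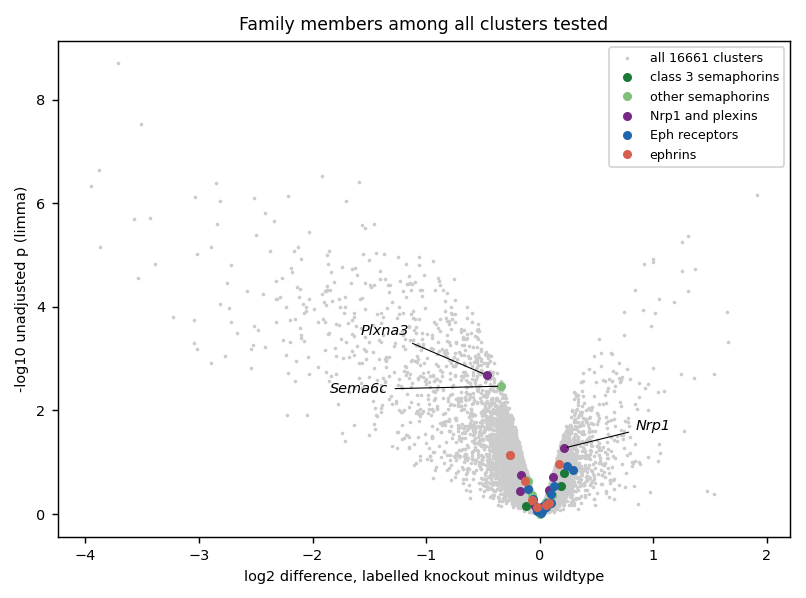
Unadjusted p from limma as -log10 (y axis) against the log2 difference (x axis) for all 16661 clusters in grey, with the 47 members coloured by family. Plxna3 and Sema6c stand above the other members on the negative side, and the other members lie within 0.3 of 0 on the x axis.

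Eph receptors, the receptor side of the contact-mediated signals, also gave no call. The 13 clusters had a median log2 difference of 0.06, with 10 positive and 3 negative. Epha4, which binds ephrins of both kinds, was at 7.97, 7.83 and 7.80 in wildtype arrays and at 8.38, 7.90 and 8.06 in the arrays labelled knockout. Knockout replicate 1 stood above the other 5 arrays. The difference of 0.24 (SE 0.13; limma adjusted p = 0.668) was 0.11 without that array.

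Epha2 had 2 clusters. One, with wildtype values of 6.13, 6.06 and 5.69 and values of 6.50, 5.94 and 6.31 in the arrays labelled knockout, had a log2 difference of 0.29 (95% interval -0.13 to 0.71; limma adjusted p = 0.706). Leaving out wildtype replicate 3 gave 0.16. Dropping 1 array labelled knockout gave 0.17 (replicate 1) or 0.45 (replicate 2). The other was at 0.02 (95% interval -0.26 to 0.29). Both overlapped between the genotypes.

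Epha5, a receptor of ephrin-A ligands described on olfactory axons, was at 7.72, 7.83 and 7.48 in wildtype arrays and at 7.98, 7.48 and 7.60 in the arrays labelled knockout. The arrays were mixed in order, and the log2 difference was 0.01 (95% interval -0.36 to 0.38; limma adjusted p = 0.994). It turned to -0.14 without knockout replicate 1 and to -0.09 without wildtype replicate 3. Epha10, a receptor whose kinase domain lacks activity, was at 0.13 (limma adjusted p = 0.811) and Epha8 at -0.11 (limma adjusted p = 0.843). Epha6 was the only member below the 25th percentile of the mean signal over all clusters, and its value of 0.06 therefore rests on a dim signal. Ephb4, the receptor that pairs with ephrin-B2 at vessels, was at 0.06 (95% interval -0.22 to 0.35), and Ephb1 and Ephb3 were at 0.10 and 0.03.

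The ephrins had a median log2 difference of -0.03, which was 0.01 with arrays centred on their medians, with 4 negative and 3 positive clusters and no call. Efna5, an ephrin-A ligand of the olfactory axon map, was at 8.94, 8.93 and 8.62 in wildtype arrays and at 8.81, 8.72 and 8.76 in the arrays labelled knockout. Its arrays overlapped (log2 difference -0.07, 95% interval -0.33 to 0.19; limma adjusted p = 0.921). Efna2 was at 6.60, 6.49 and 6.27 against 6.13, 6.07 and 6.37. Only the highest array labelled knockout reached into the wildtype range, and the log2 difference was -0.26 (SE 0.12; limma adjusted p = 0.581).

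Among the ephrin-B ligands, Efnb1, encoded on the X chromosome, was at 7.99, 7.95 and 7.84 in wildtype arrays and at 8.20, 8.02 and 8.07 in the arrays labelled knockout. Its groups did not overlap, and its log2 difference was 0.17 (SE 0.09; limma adjusted p = 0.652), with 0.28 in the arrays of low and 0.09 in those of high Y-linked signal. Efnb2, the partner of Ephb4, was at 0.05 (95% interval -0.22 to 0.33) and Efnb3 at -0.13 (limma adjusted p = 0.780). Of the markers for mesenchyme, cartilage and bone, 11 of 11 were positive with a median of 0.27 and 0 were called, and their mean was 9.09 to 9.30 in wildtype arrays and 9.46 to 9.60 in the arrays labelled knockout. Markers of sustentacular (supporting) cells were positive in 5 of 6 (median 0.21), of skeletal muscle in 5 of 5 (median 0.53) and of macrophages in 3 of 4 (median 0.13). In each of these lists 0 were called, and no other marker list had more positive than negative genes. The part of these lists in the small positive values of Efnb1, Nrp1 and Epha4 was not tested.

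Many members shared their high and low arrays within a genotype. Wildtype replicate 3 was the lowest wildtype array for 28 of the 47 members (59.6%), against 32.2% of all clusters. Knockout replicate 1 was the highest array labelled knockout for 24 members (51.1%), against 33.3% of all clusters. By family these were 4 of 6 class 3 semaphorins, 5 of 12 other semaphorins, 5 of 9 clusters of Nrp1 and plexins, 7 of 13 Eph receptor clusters and 3 of 7 ephrins. Knockout replicate 2 was the lowest of its genotype for 24 members (51.1%), against 32.8% of all clusters. In the same family order these were 4 of 6, 3 of 12, 2 of 9, 10 of 13 and 5 of 7. The mean of the mesenchyme, cartilage and bone markers was also lowest in wildtype replicate 3 (9.09), and the mature neuron mean was highest there (10.27). Among the arrays labelled knockout the mesenchyme mean ran the other way: it was lowest (9.46) in replicate 1, where 24 members were highest, and higher (9.59) in replicate 2, where 24 members were lowest. The mature neuron mean among these arrays was lowest (9.23) in replicate 1 and highest (9.60) in replicate 2. The immature neuron, skeletal muscle and macrophage means had the same order as the mature neuron mean. They were highest of wildtype in replicate 3, and among the arrays labelled knockout lowest in replicate 1 and highest in replicate 2. The mean of horizontal basal cell markers ran with the members. It was lowest of wildtype in replicate 3 (7.85), and of the labelled knockout highest in replicate 1 (8.04) and lowest in replicate 2 (7.73). The remaining marker lists followed neither order in full. Whether tissue makeup had a part in the array pattern was not tested.

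**Figure D4:**
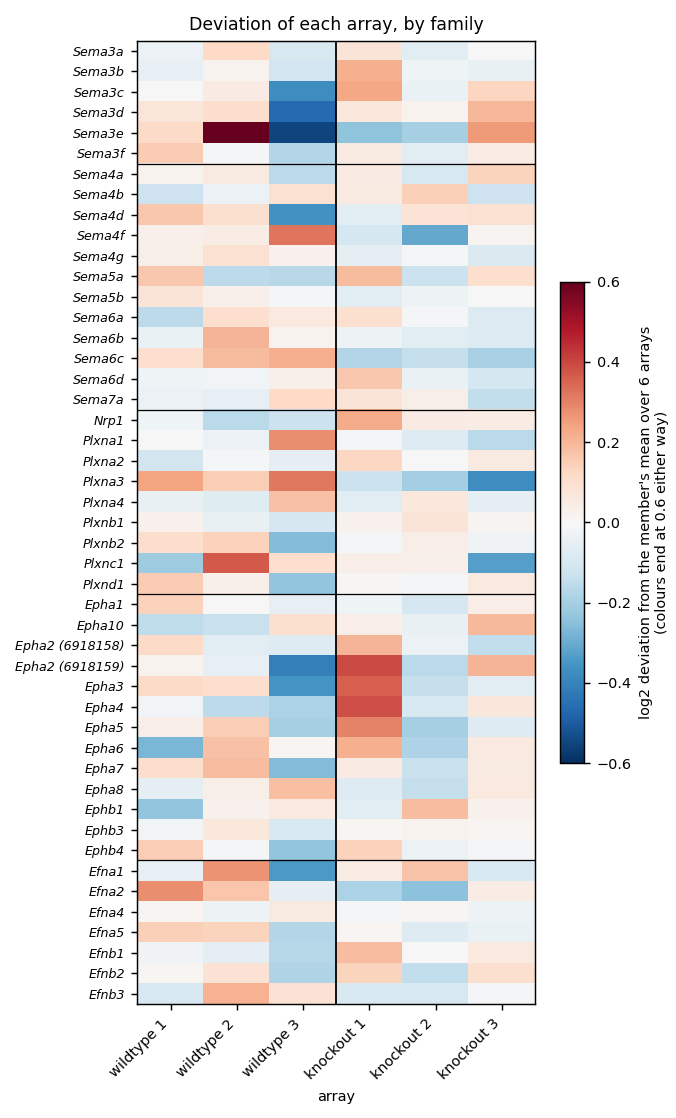
Log2 deviation of each array (x axis) from each member's mean over the 6 arrays (y axis, by family), with red above and blue below the mean. Wildtype replicate 3 is blue across the class 3 semaphorins and most Eph receptors, while Plxna3 and Sema6c are red in the wildtype arrays and blue in the arrays labelled knockout.

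The sign of many members differed between subsets of the arrays. In the arrays of low Y-linked signal (knockout replicate 1 against wildtype replicates 1 and 3), 14 members had a negative difference, 29.8% against 56.7% of all clusters. In the arrays of high Y-linked signal (knockout replicates 2 and 3 against wildtype replicate 2), 34 did so, 72.3% against 61.7% of all clusters. The sign was the same in both for 23 members, negative in 12 and positive in 11, and opposite in 24. Epha5, for example, was at 0.38 in the first and at -0.29 in the second, while Plxna3, Sema6c, Sema4f and Efna2 were negative and Nrp1 and Epha4 positive in both. With 1 array of a genotype in each subset, these values carry no test.

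**Figure D5:**
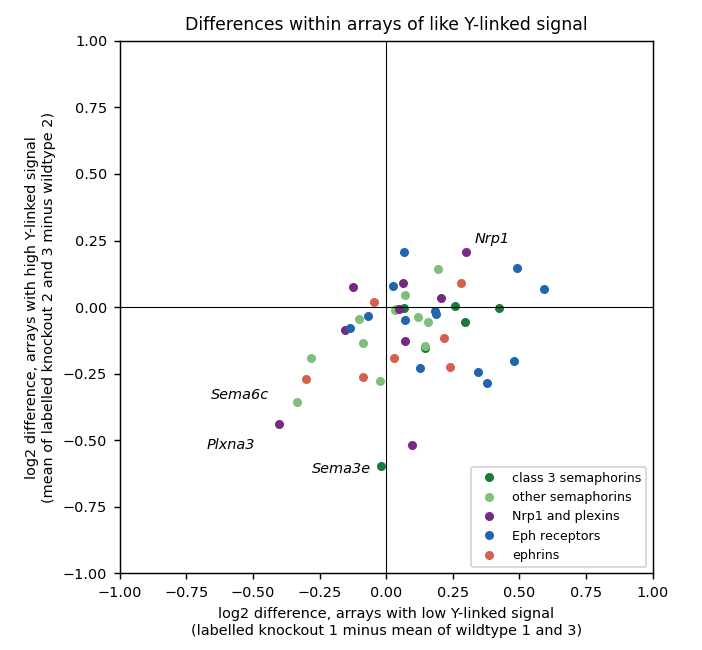
Log2 difference of each member in the 3 arrays of low Y-linked signal (x axis) against that in the 3 arrays of high Y-linked signal (y axis), coloured by family. Plxna3 (-0.40 and -0.44) and Sema6c (-0.33 and -0.36) lie near the diagonal below 0, and 24 members have opposite signs.

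Other receptors, adhesion proteins and cytoplasmic partners were taken from a list of 31 genes for semaphorin signalling, of which 27 were measured as single-gene clusters. Of these, 0 were called (limma), 18 were negative and 9 positive, the median was -0.04, and 4 were lower at an unadjusted p under 0.05. Of all clusters 61.6% were negative and 8.33% were lower at that p. Dpysl5, a collapsin response mediator protein of growing axons, was at -0.30 (SE 0.10; limma adjusted p = 0.303). Nrcam, an adhesion protein that associates with neuropilins, was at -0.38 (SE 0.14; limma adjusted p = 0.386). The others of the 4, named after their values were seen, were Crmp1, a further collapsin response mediator protein, at -0.52 (SE 0.19; limma adjusted p = 0.399), which was the largest difference of the list, and the small GTPase Rras at -0.26 (SE 0.10; limma adjusted p = 0.428). In the same arrays the 6 measured markers of immature neurons, one of which is Dpysl5, were all negative with a median of -0.37, and their part in these values was not tested.

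On the Eph side, 22 of 25 listed genes were measured, and 0 were called (limma; 0 at an unadjusted p under 0.05), with a median of 0.03. The smallest p-values belonged to Grip1, an adaptor protein that binds ephrin-B tails, at -0.23 (SE 0.10; limma adjusted p = 0.549), and Pik3r1, a regulatory subunit of PI3-kinase, at 0.22 (SE 0.13; limma adjusted p = 0.702).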

How the data were processed

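The authors deposited log2 values. Per the submitters' processing notes, RMA was run in Affymetrix Expression Console, which corrects background and normalizes quantiles between arrays. Versions, annotation level and build: not given in the sources used here. Labelled targets came from 2.7 ug of RNA, per the labels' protocols. Clusters were named from GEO's annotation of the platform, and those outside its numbering range were left out.

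The difference, labelled knockout minus wildtype, was estimated by limma 3.58.1 (lmFit and eBayes, R 4.3.3). Two-sided p-values were adjusted by the Benjamini-Hochberg method over 16661 clusters, with 0.05 as the threshold. Intervals are limma's 95% intervals. Labels do not say whether pools were independent litters, so p-values measure the spread between these pools. On simulated data with 16661 genes, the fit for this comparison recovered changes of 1.5-fold in 30% of cases, of 2-fold in 76% and of 4-fold in 96%, with 9 false calls. The simulation drew independent normal noise for each gene and planted 50 changed genes per fold, in random directions. Deviations shared between genes and calls mostly in the lower direction, as seen in the data, were not simulated. These shares therefore need not hold for the members. Plots used matplotlib 3.10.9. Members and lists were chosen with earlier results of these data known. Named members are the 4 with the smallest p in each of the 5 groups, those called or with an absolute difference of at least 0.5, and Nrp1, Sema3a, Sema3f, Plxna1, Plxna3, Epha5, Efna3 and Efna5. Others are named as context and were chosen after their values were seen. Alternatives were median-centred arrays, dim clusters removed, array weights, a trended or robust variance, a replicate block, Y-linked signal as a covariate, all probe sets tested and each array left out. Of the Y-linked genes planned, Eif2s3y and Kdm5d were used.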

Additional observations from a re-analysis of the deposited data

How the results depend on the processing

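The count of called members was 0 in both directions under all 14 alternatives. Of the named members' values, 312 kept their direction and stayed short of the threshold, and 10 turned, all in members near 0 or of wide spread. Epha5 was at -0.0037 and Sema3a at -0.021 with array weights, and Sema3a at -0.0026 with the Y-linked covariate. With 1 array left out, Epha5 ranged from -0.14 to 0.11, Sema3a from -0.037 to 0.071, Sema3e from -0.43 to 0.16 and Sema3f from -0.060 to 0.10. Sema3e turned without wildtype replicate 2 (0.16). The median of the Eph receptors ranged from -0.037 (without knockout replicate 1) to 0.097, and that of Nrp1 and the plexins from -0.067 (without wildtype replicate 3) to 0.067 (without wildtype replicate 1). The replicate block left Plxna3 at -0.47 with limma adjusted p = 0.255. The main fit had no block because the labels do not say that equal replicate numbers share a litter or day. Deviations of same-numbered arrays correlated at 0.01, 0.05 and -0.17, and those of differently numbered arrays at -0.21 to 0.22. Calls over all clusters fell to 168 lower and 16 higher with the block, from 316 and 24. The other counts beyond 1.5 times were 109 lower of 12495 clusters above the 25th percentile, 144 lower with all probe sets tested, and 186 lower with the Y-linked covariate. With 1 array left out the counts over all clusters ran from 145 to 224 lower and from 13 to 23 higher. The cause of these moves was not tested. The number of arrays limits what can be resolved for differences of the size seen in these families.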

Other observations

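Clusters that name a family gene together with another gene gave values near 0. The cluster of Nrp2 and Pard3b averaged 9.74 ± 0.07 (SD, n = 3) for wildtype and 9.82 ± 0.21 (SD, n = 3) for the labelled knockout, with a log2 difference of 0.08 (SE 0.12; limma adjusted p = 0.923). The cluster of Ephb6 and Mon2 averaged 7.62 ± 0.03 (SD, n = 3) and 7.62 ± 0.04 (SD, n = 3), with a log2 difference of 0.001 (SE 0.08; limma adjusted p = 0.998). Which of the paired genes gives the signal cannot be told apart.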
